A study of Mus musculus with 2 samples.

Results

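Tcf7 and Lef1 are paralogous genes of the TCF/LEF transcription factor family, and the chromatin around them was examined by DNase I-seq in whole thymus. They are 2 of the 21938 protein-coding genes of the GENCODE M21 annotation on mm10. Each was given a window of its gene body and 60 kb either side, and every accessible region with its midpoint in that window was taken. The Tcf7 window held 47 regions found in both replicates and the Lef1 window held 24, together 71 of the 51709 such regions in the data. The samples were thymus tissue from untreated male B6CASTF1/J mice at 2 months of age, in 1 group of 2 replicates. B6CASTF1/J is the first-generation cross of C57BL/6J and CAST/EiJ, and the files do not separate the parental alleles. The labels number the animals separately but give both the same donor identifier. With 1 group there is no treatment to compare, and the values below are descriptions with the spread over the 2 replicates, which may be technical.

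Tcf7 encodes TCF-1 and Lef1 encodes LEF-1, proteins that bind DNA through a high mobility group box and recognise sequences such as CTTTGAT. In the absence of Wnt signals they recruit corepressors of the Groucho/TLE family, and after Wnt signals beta-catenin, encoded by Ctnnb1, binds them as a coactivator. Both are known for their part in T cell development in the thymus, where Tcf7 is induced by Notch signalling in early progenitors. Tcf7l1 and Tcf7l2 are the other genes of the family.

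DNase I cuts open chromatin, and a peak is a stretch with more cuts than its surroundings. The peak score is the signal value given by the submitters, whose scale is not stated, and depth is not stated either. The strict lists held 62230 and 66839 peaks after overlapping entries were joined, with median scores of 1.58 and 1.37, and 83.8% and 79.8% of them overlapped a peak of the other replicate. Scores were lower in replicate 2, with a median log2 difference of -0.22 over all shared regions. The labelled tissue was checked against markers. All 11 thymocyte genes had a promoter peak in both replicates, where any protein-coding gene had one in 59.0% of cases. So had 2 of 6 B cell, 1 of 5 macrophage and monocyte, 2 of 6 thymic epithelial, 2 of 4 endothelial, 3 of 4 fibroblast, 1 of 4 erythroid and 0 of 3 hepatocyte genes. In whole tissue, more cells with an open region and a more open region in each cell cannot be told apart.

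Sequences from the highest distal region of each gene and from the highest Lef1 promoter region are shown first, since these regions are described below. Distal means over 1000 bp from every annotated transcription start site (TSS). All sequences are the forward strand of GRCm38.p6 as held by RefSeq. Capitals in the first 3 mark bases that lay under a footprint in both replicates, a footprint being a short stretch protected from cutting within open chromatin. The Tcf7 stretch is chr11:52314097-52314396, in intergenic sequence 31.2 kb upstream of the gene. The Lef1 promoter stretch is chr3:131112011-131112210, in an intron of Lef1. It ends before the downstream start sites at chr3:131112797 and chr3:131112806. The first bases of that stretch also lie in the exon of the antisense gene Gm43352, whose 5' end at chr3:131112090 is inside the stretch. The Lef1 distal stretch is chr3:131208581-131208820, in an intron 98.2 kb into the gene.
Tcf7 distal, 31.2 kb upstream: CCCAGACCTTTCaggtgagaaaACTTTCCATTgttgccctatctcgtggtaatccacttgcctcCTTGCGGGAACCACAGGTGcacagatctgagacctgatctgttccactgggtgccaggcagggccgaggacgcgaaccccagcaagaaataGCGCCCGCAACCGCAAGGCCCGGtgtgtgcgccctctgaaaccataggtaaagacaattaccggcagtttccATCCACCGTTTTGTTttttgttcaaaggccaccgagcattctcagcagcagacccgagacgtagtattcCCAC
Lef1 promoter: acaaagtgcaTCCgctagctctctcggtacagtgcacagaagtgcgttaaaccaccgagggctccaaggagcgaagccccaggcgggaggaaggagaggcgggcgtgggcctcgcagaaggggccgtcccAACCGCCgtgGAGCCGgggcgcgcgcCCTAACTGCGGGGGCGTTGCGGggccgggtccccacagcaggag
Lef1 distal, 98.2 kb downstream of the start: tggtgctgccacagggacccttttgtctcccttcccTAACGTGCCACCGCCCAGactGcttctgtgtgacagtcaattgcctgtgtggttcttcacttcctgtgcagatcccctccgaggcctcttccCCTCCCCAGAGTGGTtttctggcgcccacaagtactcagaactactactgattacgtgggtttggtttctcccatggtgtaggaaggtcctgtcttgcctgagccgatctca

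The Tcf7 stretch holds 300 bases, of which 83 lay under footprints of both replicates, and 54.7% of its bases are G or C. One protected run at chr11:52314161-52314179 holds a match to the RUNX motif TGTGGTT on the reverse strand and a match to the E-box CAGGTG on the forward strand, and the matches overlap. A second E-box match at chr11:52314108-52314113 and a match to the RBPJ motif GTGGGAA at chr11:52314390-52314396 also touched footprints of both replicates, but only in part. Bases protected in both replicates ended at chr11:52314108, the first base of that E-box match. Within the RBPJ match they were chr11:52314393-52314396. RUNX factors and E proteins act throughout T cell development, and RBPJ is the DNA-binding partner of Notch. A match to CTTTGA, a shorter form of the TCF/LEF motif, at chr11:52314345-52314350 touched a footprint of replicate 1 and none of replicate 2. The longest protected run, of 23 bases at chr11:52314252-52314274, held no match to any motif searched. In the Lef1 distal stretch, 34 of 240 bases lay under footprints of both replicates, and 1 of its protected runs held the SP/KLF motif GGGCGG on the reverse strand. The RUNX match of that stretch, at chr3:131208664-131208670, touched no footprint. A match says only that the letters are there.

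The 2 windows differed above all in the number of regions. Tcf7 spans chr11:52252371-52283014 on the reverse strand, 30.6 kb with 2 annotated TSSs. Lef1 spans chr3:131110471-131224356 on the forward strand, 113.9 kb with 5 annotated TSSs. Although the Tcf7 window is the shorter, it held 3.12 regions per 10 kb against 1.03 for Lef1, a ratio of 3.04. Among all protein-coding genes, whose median was 0.386 per 10 kb, Tcf7 stood highest and Lef1 was in place 2438, at a percentile of 88.9. The next genes after Tcf7 were Cd8b1, a thymocyte coreceptor gene, with 3.118 per 10 kb, and Btn2a2 with 3.05. First place is thus held by a margin smaller than 1 region, and over the alternative settings Tcf7 stood between places 1 and 23. The other family genes were near the median, with 0.424 per 10 kb at Tcf7l1 and 0.289 at Tcf7l2. With flanks of 30 and 100 kb in place of 60 kb, the windows held 32 and 53 regions at Tcf7 and 18 and 30 at Lef1. Counted without regard to length, Tcf7 was in place 4 and Lef1 in place 320. For distal regions alone, 40 at Tcf7 gave 2.66 per 10 kb, again first among the genes, and 17 at Lef1 gave 0.727, in place 678.

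**Figure D1:**
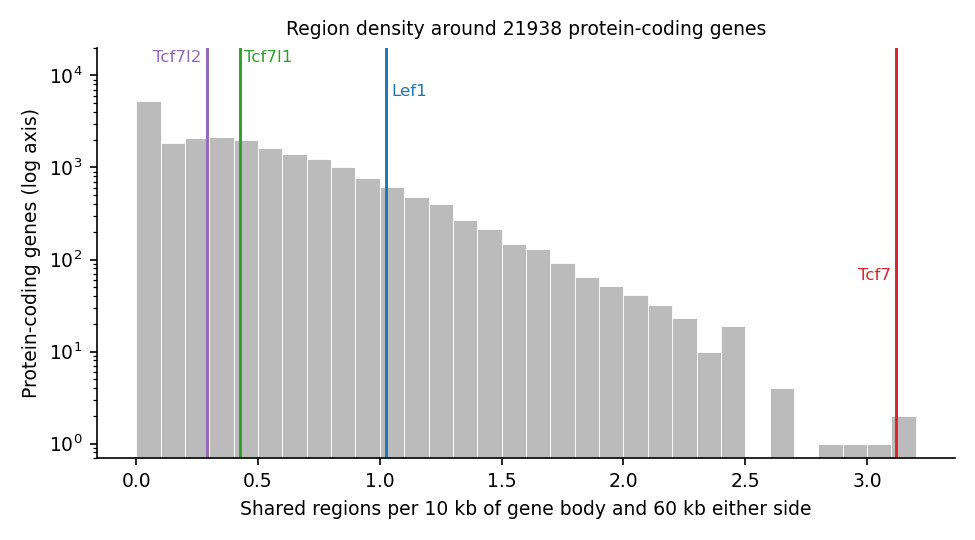
Number of protein-coding genes (y, log axis) by shared regions per 10 kb of their window (x), with coloured lines at the 4 TCF/LEF genes. Tcf7 at 3.12 lies at the far right end, Lef1 at 1.03 in the upper part, and Tcf7l1 and Tcf7l2 near the middle of the distribution.

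The difference was already present in each replicate before peaks were matched. The Tcf7 window held 74 strict peaks in replicate 1 and 69 in replicate 2, and the Lef1 window held 28 in each. Peaks at Lef1 were matched more often, with 85.7% and 92.9% overlapping a peak of the other replicate, while at Tcf7 the shares were 66.2% and 73.9%. The Tcf7 peaks without a partner were low, with median scores of 0.963 (25 peaks of replicate 1) and 0.738 (18 peaks of replicate 2). Of these, 10 and 11 overlapped a peak in the looser list of the opposite replicate. The shares for Tcf7 were below those of all peaks and the shares for Lef1 were above them.

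The regions were placed differently along the 2 genes. At Tcf7, 22 regions lay in the 60 kb upstream, 21 inside the gene and 4 downstream, or 3.67, 6.85 and 0.667 per 10 kb. At Lef1, 7 lay upstream, 12 inside the gene and 5 downstream, or 1.17, 1.05 and 0.833 per 10 kb. Density was thus highest inside Tcf7 and lowest downstream of it, while at Lef1 the 3 parts lay close together. Shared regions covered 30.4% of the Tcf7 gene body and 3.93% of the Lef1 gene body. Neighbouring regions were a median of 900 bp apart at Tcf7 and 1964 bp apart at Lef1. Up to 10 Tcf7 regions fell within 10 kb, between 14.3 and 24.2 kb into the gene, and up to 7 Lef1 regions did, around its promoters. The widest empty stretch at Tcf7 was 21.9 kb, from 28.9 to 51.2 kb downstream of its 5' end, and 2 gaps exceeded 10 kb. At Lef1, 7 gaps exceeded 10 kb, the widest being the 48.3 kb of intron between regions at 48.9 and 97.6 kb, followed by 37.8 kb upstream and 28.4 kb behind the promoter.

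**Figure D2:**
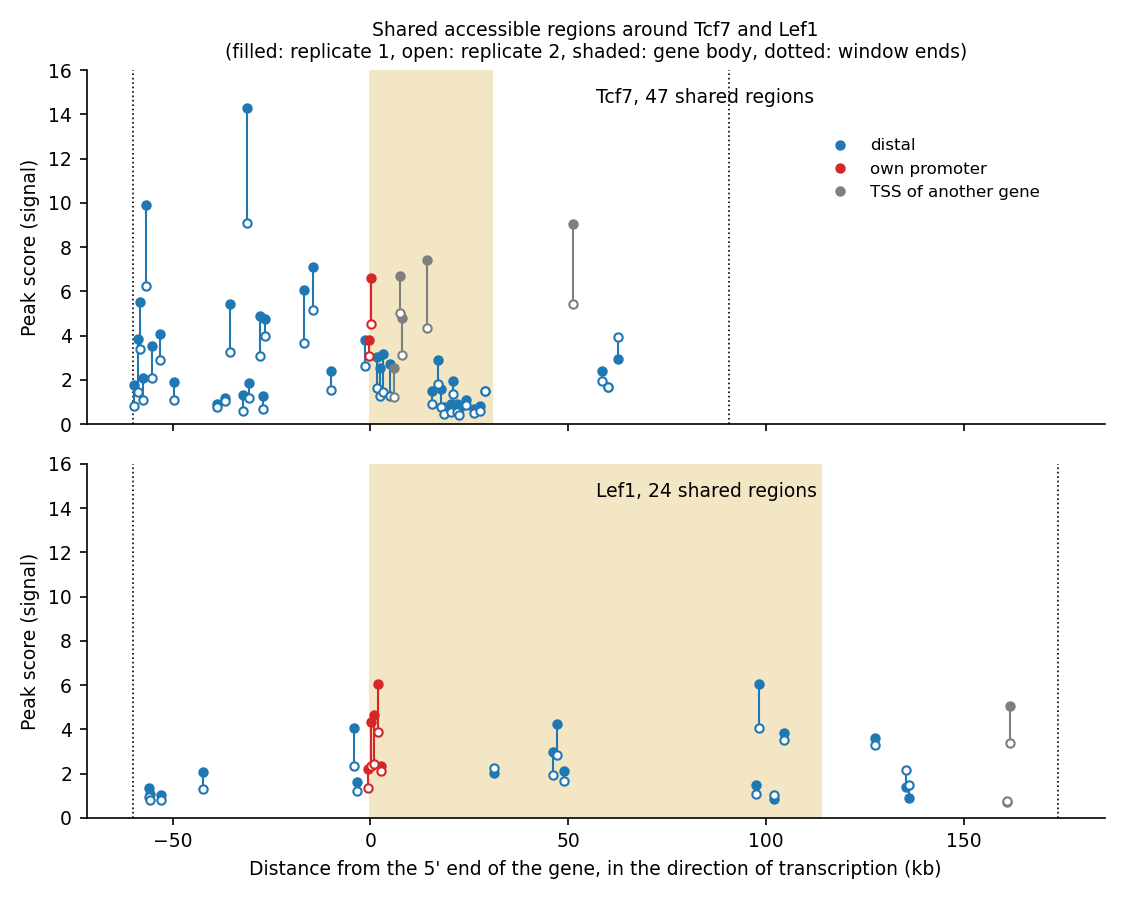
Score of every shared region (y, signal) by its distance from the 5' end of Tcf7 (top) or Lef1 (bottom) in kb (x), with replicate 1 filled, replicate 2 open and a line joining them. Tcf7 regions are high upstream and low but crowded in the gene body, while Lef1 regions stand in a few separate groups.

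Both promoters were open at middling height. The Tcf7 promoter scored 6.59 in replicate 1 and 4.55 in replicate 2, a mean of 5.57 ± 1.45 (SD, n = 2). The Lef1 promoter scored 6.04 and 3.90, a mean of 4.97 ± 1.52 (SD, n = 2). Tcf7 was the higher by a little in each replicate, while the ranges of the genes over the replicates overlapped. Among the 12935 genes with a promoter peak in both replicates, whose median was 6.83, Tcf7 stood at a percentile of 41.0 and Lef1 at 36.6. Tcf7l1 scored 5.91 ± 0.049 and Tcf7l2 2.77 ± 0.302 (SD, n = 2). In order of the mean, Tcf7l1, Tcf7 and Lef1 were neighbours whose replicate SDs overlapped, and Tcf7l2 lay below all 3 in both replicates.

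More regions counted as promoter at Lef1, which has 5 annotated TSSs against 2 at Tcf7. The count depends on this annotation, since regions 1.72, 2.40 and 3.27 kb into Tcf7 were counted as distal. At Tcf7, a region 760 bp wide covered both TSSs (chr11:52282421-52283180), and a region of 200 bp lay just upstream (chr11:52283261-52283460) with scores of 3.81 and 3.09. The wide region held 11 footprints of replicate 1 that overlapped a footprint of replicate 2, the most in the Tcf7 window. At Lef1, 5 regions lay within 1000 bp of one of its TSSs, from 0.65 kb upstream to 2.73 kb downstream of the 5' end. The region over the 5' end itself (chr3:131110201-131110828) scored 4.31 and 2.34, and the next (chr3:131111021-131111780) scored 4.67 and 2.41. The highest lay at the downstream start sites (chr3:131111981-131112840) with the 6.04 and 3.90 given above, and it too held 11 footprints matched between the replicates. The 5' end of the antisense gene Gm43352 is in this region, so the opening cannot be assigned to Lef1 alone. The first and the last of the 5 were lower, at 2.19 and 1.35 upstream and at 2.34 and 2.12 downstream.

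The median distal region was of like height at Tcf7 and Lef1. The median distal score was 2.23 in replicate 1 and 1.41 in replicate 2 at Tcf7, and 2.02 and 1.65 at Lef1. The medians of the mean scores were 1.81 and 1.77, and that of all 29398 distal regions was 1.45. The order of the medians turned between the replicates. The mean, which the highest regions raise, was higher at Tcf7 in both, at 3.04 against 2.39 in replicate 1 and 1.98 against 1.92 in replicate 2. The upper ends differed more. The region 31.2 kb upstream of Tcf7 (chr11:52314041-52314440), whose sequence is given above, scored 14.3 and 9.10, a mean of 11.7 ± 3.66 (SD, n = 2). It was higher than 99.6% of distal regions. The highest Lef1 region, in the intron 98.2 kb into the gene, scored 6.06 and 4.07, a mean of 5.07 ± 1.41 (SD, n = 2), higher than 94.8% of distal regions. The lower Tcf7 value exceeded the higher Lef1 value.

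The next 4 distal regions of Tcf7 all lay upstream. One at 56.7 kb (chr11:52339581-52339820) scored 9.90 and 6.25, and one at 14.5 kb (chr11:52297461-52297660) scored 7.09 and 5.17. The third, at 16.9 kb (chr11:52299761-52300020), scored 6.08 and 3.66, and the fourth, at 58.2 kb (chr11:52341061-52341400), scored 5.54 and 3.41. All 4 were higher in replicate 1. The region 14.5 kb upstream held a match to the CTCF motif under footprints of both replicates, CTCF being a factor known for its place at chromatin loop anchors. Of the next 4 distal regions of Lef1, 2 lay in its introns. The region 104.6 kb into the gene (chr3:131214961-131215160) scored 3.83 and 3.52 and also held a CTCF match under footprints of both replicates. The one at 47.2 kb (chr3:131157521-131157760) scored 4.25 and 2.83. Another lay in an intron of the neighbouring gene Hadh (chr3:131237841-131238040) with 3.62 and 3.31, and the last 4.25 kb upstream of Lef1 (chr3:131106061-131106380) with 4.04 and 2.33. These 4 reached less than the 2 highest of Tcf7 in either replicate.

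Within the Tcf7 window, the number of regions and their height did not go together. Median scores over the 21 upstream distal regions were 3.81 in replicate 1 and 2.08 in replicate 2. The 16 distal regions of the gene body had 1.51 and 0.902. The highest of the latter had a mean of 2.36, below the upstream median of 2.80. Gene body regions were also wider, with a median of 463 bp against 320 bp upstream and 200 bp for all distal regions. At Lef1 the order was the opposite, with medians of 1.49 and 1.07 for the 6 upstream and of 2.54 and 2.09 for the 8 gene body distal regions. Inside Tcf7, 4 further regions lay near start sites of the noncoding genes A630014C17Rik and Gm26551, with mean scores from 1.89 to 5.88. The lowest of these scored less than the distal region beside it, and the other 3 scored more than any distal region of the gene body. The nearest protein-coding gene was Tcf7 for 25 of its 40 distal regions, and Vdac1 (8), Skp1a (6) or Olfr1371 (1) for the others. It was Lef1 for 10 of 17 and Hadh for the other 7. Which gene a region acts on was not measured.

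The tracks of false discovery rate gave a view that does not depend on how peaks were cut. They list each stretch of bases whose cut rate had a false discovery rate under 0.05. In the Tcf7 gene body, 76.0% of bases were listed in replicate 1 and 68.4% in replicate 2. In the Lef1 gene body the shares were 8.26% and 6.34%, and over the genome they were 1.44% and 1.32%. At a rate of at most 0.001, 49.9% and 45.7% of the Tcf7 body remained, and 5.95% and 4.41% of the Lef1 body. Bases of the Tcf7 body listed under 0.05 came to 23.3 and 20.95 kb. Over the whole Tcf7 window, 34.8 and 28.5 kb were listed at a rate of at most 0.001. The strict peaks of that window covered 21973 and 17110 bp, so that listed bases reached beyond the strict peaks. Short genes can reach high shares, so genes were ranked by length class. Of 7662 genes of at least 30 kb, Tcf7 had the highest share in both replicates at either threshold, and it ranked 172 and 168 among genes of any length at the 0.05 threshold. The limit of 30 kb was chosen after the value was seen, and among genes of at least 10 kb the ranks were 5 and 3. Lef1 was in places 363 and 434 of the genes of at least 30 kb. Upstream of the genes, 37.9% and 31.8% of bases were listed at Tcf7, and 9.76% and 6.88% at Lef1. Downstream the genes were alike, with 5.35% and 5.32% at Tcf7 and 4.33% and 4.11% at Lef1.

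**Figure D3:**
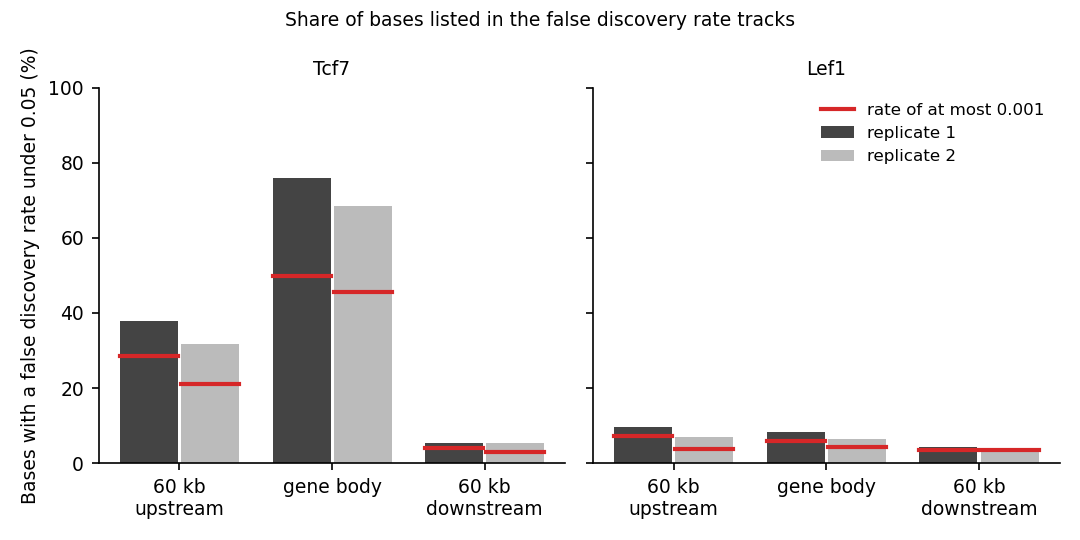
Percent of bases listed with a false discovery rate under 0.05 (bars; dark replicate 1, light replicate 2) in 3 parts of each window, with the share at a rate of at most 0.001 as red lines. The Tcf7 gene body stands at 76.0% and 68.4%, and no part of the Lef1 window passes 10 percent.

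Nearly all Tcf7 regions were lower in replicate 2. Of the 47, 45 had the lower score there, with a median log2 difference of -0.67, as had 19 of the 24 at Lef1, with a median of -0.45. The number of lower regions among all shared regions is not given here, but the middle 95% of their differences ran from -0.97 to 0.83. Set against the shift of -0.22 over all shared regions, 43 of the Tcf7 regions and 16 of the Lef1 regions fell below it. For distal regions alone the medians were -0.68 at Tcf7 and -0.41 at Lef1, while it was -0.06 over all distal regions. Over the distal regions of the genome that scored between the lower and upper quartile of the Tcf7 window, it was -0.05. Promoters of thymocyte markers moved in the same direction, with a median of -0.62 and 11 of 11 lower in replicate 2. Of all 12935 accessible promoters, 11530 were lower there and the median was -0.37. The count alone thus does not set the markers apart. Markers of other cell types went both ways, each over very few genes. The medians were -0.32 for the 2 accessible B cell promoters, -0.35 for the 2 of thymic epithelium, -0.28 for the 1 of macrophages and -0.54 for the 1 erythroid promoter. They were 0.01 for the 3 fibroblast promoters, and the 2 endothelial ones stood at -0.29 and 0.55. The part of cell makeup in the replicate difference was not tested.

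**Figure D4:**
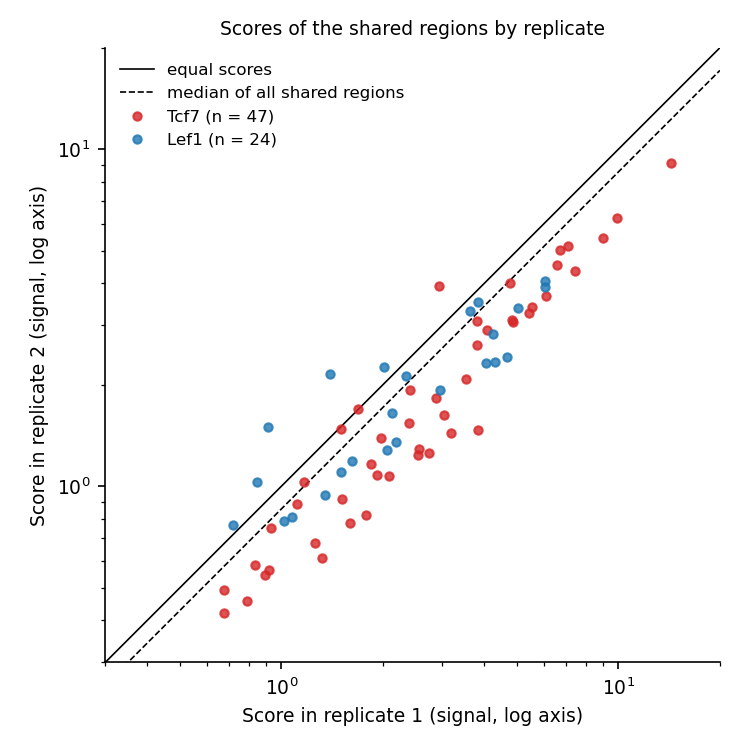
Score of each shared region in replicate 2 (y) against replicate 1 (x), both on log axes, for Tcf7 (red) and Lef1 (blue), with lines for equal scores and for the median of all shared regions. Tcf7 points lie mostly below the dashed line, and Lef1 points lie on both sides of it.

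The Tcf7 window held more footprints than the Lef1 window, but not more per kb when all shared regions were pooled. The Tcf7 window held 361 footprints in replicate 1 and 296 in replicate 2, and the Lef1 window 150 and 122. Per kb of shared region, however, the genes were close, with 11.7 and 10.5 at Tcf7 and 12.1 and 11.3 at Lef1. Both were below the 13.6 and 13.8 of all shared regions. The kinds of region differed. Own promoter regions held 20.8 and 25 per kb at Tcf7 (2 regions) and 14.3 and 12.1 at Lef1 (5 regions). Distal regions held 10.6 and 9.23 per kb at Tcf7 and 11.7 and 11.1 at Lef1. Median footprint width was 9 bp in both replicates at Tcf7, and 9 and 10 bp at Lef1. At Tcf7, 121 and 103 footprints lay outside every strict peak, and at Lef1, 51 and 32 did. Fewer than 1 in 2 Tcf7 footprints recurred: 35.7% of those of replicate 1 overlapped one of replicate 2, and 44.6% the other way round. At Lef1 the shares were 42.0% and 54.1%. The same share over all footprints of the data is not given here, so these cannot be called low or high.

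Recurrent footprints were concentrated in the high regions. A footprint of both replicates was present in 28 of 40 distal regions of Tcf7 (70.0%) and in 14 of 17 of Lef1 (82.4%), against 86.8% of all distal regions. Among Tcf7 distal regions with a mean score under 1, 3 of 10 had one, where 72.4% of all distal regions of that height had. At scores of 5 and over, all 3 Tcf7 regions and the 1 Lef1 region had one. Recurrent footprints per kb rose from 1.01 to 21.4 over the score classes of Tcf7, while over all distal regions they went from 5.32 to 15.6. The Tcf7 regions lay under the general curve in the 4 lower classes and above it in the highest, which rests on 3 regions. Distal regions of the Tcf7 gene body had a median width of 463 bp, and the part of width in the rate per kb was not tested.

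**Figure D5:**
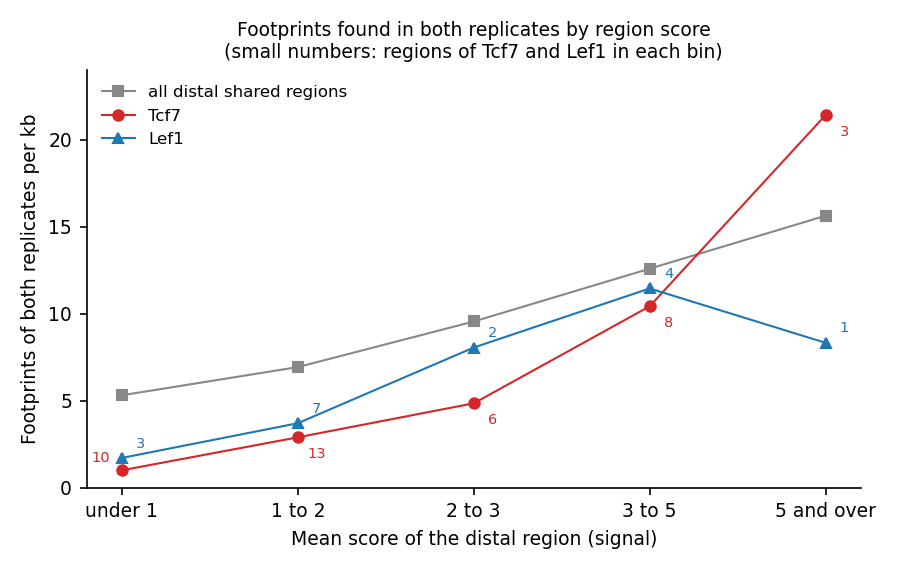
Footprints of replicate 1 that overlapped one of replicate 2, per kb of distal region (y), by mean region score (x), for all distal regions (grey), Tcf7 (red) and Lef1 (blue), with the number of regions beside each point. Tcf7 goes from 1.01 to 21.4 per kb and crosses the grey line between the 2 highest classes.

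Matches to the full form of the factors' own motif were few at Tcf7 and were not found at Lef1. In the central 200 bp, CTTTGAT on either strand was present in 4 of 47 Tcf7 regions (8.51%) and in 0 of 24 Lef1 regions, against 2.55% of all shared regions. In distal regions alone the counts were 3 of 40 (7.5%) at Tcf7 and 0 of 17 at Lef1, against 3.35%. No test was made, and the counts are small. With a general share of 2.55%, the lack of a match in 24 regions does not set Lef1 apart. Of the 4, 1 lay in the promoter region 0.347 kb upstream of the 5' end and 3 in distal regions 1.44, 26.7 and 35.6 kb upstream. The promoter match and the match 26.7 kb upstream touched footprints of both replicates, the match at 1.44 kb touched one of replicate 2 only, and the match at 35.6 kb touched none. The 4 sites are given with their flanks, and capitals mark the match. All but the last read CTTTGAT on the reverse strand, and so appear as its complement. The printed promoter stretch overlaps an exon of a RefSeq mRNA, although it lies upstream of the 5' end of Tcf7 in GENCODE. The gene and the place of that exon are not given here.
Tcf7 promoter, chr11:52283357-52283385: cgggtcggaacATCAAAGgcaccgcgggc
Tcf7 1.44 kb upstream, chr11:52284448-52284476: cctggcggaggATCAAAGagaccaggcct
Tcf7 26.7 kb upstream, chr11:52309581-52309609: cctgtgtgaagATCAAAGcctgaaggaag
Tcf7 35.6 kb upstream, chr11:52318525-52318553: agctcagctggCTTTGATgtcacctggcc

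With the shorter motif, CTTTGA or CTTTGT, the genes came close to the general level, at 13 of 47 regions (27.7%) for Tcf7 and 5 of 24 (20.8%) for Lef1, against 22.6% of all. Over whole regions, 5 of the 27 Tcf7 matches and 1 of the 11 Lef1 matches touched footprints of both replicates. No such share over all shared regions is given here to set beside them. The 1 match at Lef1 lay in the region 4.25 kb upstream of the gene, in sequence of which 80 percent is G or C. It is shown with its flanks, and capitals mark the match on the reverse strand.
Lef1 4.25 kb upstream, chr3:131106092-131106121: gccgccgcgactTCAAAGgccgcgccgccg

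Among the other motifs, ETS, E-box, RUNX and MYB matches had shares near the general ones, while CTCF shares were lower in both windows. Many of the counts were small, and they were not tested. The ETS motif CNGGAAG was in 14 Tcf7 and 7 Lef1 regions (29.8% and 29.2%), against 29.3% of all. E-box motifs CAGCTG or CAGGTG were in 19 and 10 (40.4% and 41.7%), against 35.5%. RUNX matches were in 2 and 2 (4.26% and 8.33%), against 6.49%, and MYB matches to AACTGNC in 4 and 2 (8.51% and 8.33%), against 9.33%. GATA matches to AGATAAG were in 1 and 0, against 1.66%. The RBPJ motif was in 4 Tcf7 regions, all distal (8.51%), and in 0 of Lef1, against 4.60%. CTCF matches were in 2 of 47 regions at Tcf7 (4.26%) and 2 of 24 at Lef1 (8.33%), against 12.0%, and in distal regions alone in 5.00% and 5.88%, against 17.1%. SP/KLF matches were in 6 (12.8%) and 7 (29.2%), against 26.8%. In distal regions alone they were in 4 of 40 (10.0%) and 3 of 17 (17.6%), against 10.9%, so the low share of Tcf7 was not seen there. Matches to SP/KLF, a motif common in promoters rich in CpG, touched footprints of both replicates in 9 of 13 cases at Tcf7 and 15 of 21 at Lef1. CTCF matches did in 2 of 3 and 2 of 2. The same shares over matches in all shared regions are not given here, so these cannot be called high or low.

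Genes of the Wnt pathway were set beside the 2 factors, from a list of 80 genes by role. Of these, 55 (68.8%) had a promoter peak in both replicates, against 59.0% of all protein-coding genes. Open promoters were found in 10 of 10 genes of the destruction complex, which degrades beta-catenin, and in 16 of 17 coactivators and corepressors. Among receptors and transducers 17 of 22 were open, among ligands 9 of 19, and among secreted inhibitors 1 of 10. Ctnnb1 and the highest corepressor genes had higher promoters than either factor. Ctnnb1 scored 12.6 and 9.55, a mean of 11.1 ± 2.17 (SD, n = 2), and the corepressor genes Tle4 and Tle3 had means of 23.3 ± 7.90 and 14.0 ± 1.82. In the destruction complex, Btrc, a ubiquitin ligase subunit, had 22.7 ± 7.41, and the kinase gene Gsk3a had 17.0 ± 2.45. Dvl1, a transducer behind the receptors, had 9.90 ± 2.65, and Znrf3, a ligase that removes receptors, had 7.79 ± 1.53. The highest ligand promoters were low, at 2.21 ± 0.058 for Wnt11 and 2.16 ± 0.261 for Wnt1, and the 1 open inhibitor, Wif1, had 3.13 ± 0.125. The median number of distal regions in the window was 4 for the list and 2 for all genes, and no gene of the list reached the 40 of Tcf7.

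Tcf7 and Lef1 were each nearer to many other genes than to each other. Likeness was taken as the distance over 3 standardised log2 measures, namely promoter score, number of shared regions and gene length. The genes nearest to Tcf7 were Gm20708, Sbno2 and Rhof, with 33, 33 and 31 regions and distances of 0.470 to 0.498. Nearest to Lef1 were Sema4d, Gm42791 and Dnmt3a, with 24, 26 and 21 regions and distances of 0.104 to 0.136. Of the 21937 other genes, Lef1 stood in place 538 by nearness to Tcf7, and Tcf7 in place 1769 by nearness to Lef1, at a distance of 1.13. Each was thus nearer to the other than most genes were. Even the nearest gene to Tcf7 was further away than those of Lef1, and it had fewer regions than Tcf7.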

How the data were processed

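DNase I-seq of 2 thymus samples was analysed from deposited mm10 interval files. Each peak in the authors' lists carries a signal value, called its score here, the deposited tracks a false discovery rate (q-value) for stretches under 0.05, and the deposited footprints a constant of the authors, used as positions only. Which aligner, caller and footprint program were run is not given in the sources used here, nor is the depth. Overlapping strict peaks of a replicate were joined, keeping the highest score. Peaks of the replicates that overlapped by at least 1 bp formed a shared region, scored by the mean of each replicate's highest score. A promoter score is the highest within 1000 bp of a TSS. Motifs were searched on both strands in the central 200 bp.

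The members and lists were chosen with earlier results of these data known. Named genes were the 2 factors, their neighbours, the 3 most alike genes, family members, Ctnnb1 and the 2 highest of each Wnt group, with the 5 highest distal regions of each window. Cd8b1 and Btn2a2, the marker genes named and the extent of the printed sequences were chosen after their values were seen. Steps were tested on simulated data. No test between samples was made with 1 group. The alternatives are given below. Python 3.11.15, numpy 2.4.6, pandas 2.3.3 and matplotlib 3.10.9 were used.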

Additional observations from a re-analysis of the deposited data

How the results depend on the processing

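Of 107 alternative values, 71 moved by less than the replicate SD (counts: by less than 1.5 times), and Tcf7 was denser than Lef1 in every alternative for the density ratio. The Tcf7 to Lef1 density ratio, 3.04, was 3.41 and 2.40 with flanks of 30 and 100 kb, 2.60 within 100 kb of the 5' end, 2.57 with the 50000 highest peaks, 2.40 with 50% reciprocal overlap, and 3.83 to 4.10 with 1 replicate left out. Tcf7 counts were 69 to 74 and Lef1 counts 28 with 1 replicate alone. The Tcf7 density percentile, 100, was 99.98 with either flank, 99.995 with the looser list and with entries not joined, 99.97 with the 50000 highest, 99.90 with reciprocal overlap and 99.986 to 99.991 with 1 replicate. That of Lef1, 88.9, was 86.5 with 30 kb, 92.1 with the looser list, 90.03 with reciprocal overlap and 87.0 to 88.3 with 1 replicate. The Lef1 distal median, 1.77, was 2.14 with 30 kb, 1.26 with the looser list and 1.495 to 1.56 with 1 replicate, and the Tcf7 median, 1.81, was 1.05 to 1.59. Footprints per kb at Tcf7, 11.1, were 8.60 (looser list), 12.3 (50000 highest), 12.8 (reciprocal) and 12.6 (not joined). At Lef1, 11.7, they were 12.5 (30 kb), 10.9, 13.3 and 13.1 (looser, reciprocal, not joined), and 12.4 to 13.2 with 1 replicate. The causes were not tested. Promoter scores did not move with any list, overlap rule or promoter width. Each is the highest peak near a TSS, which most of these settings leave in place, so little can be read from that. By replicate the scores were 4.55 to 6.59 for Tcf7 and 3.90 to 6.04 for Lef1. No paired analysis was possible because the series holds 1 group. With 2 replicates and no stated depth, differences inside the replicate spread were not detectable.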
